A study of Mus musculus with 9 samples.

Results

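This report describes the genes of sterol and fatty acid synthesis in mouse splenic dendritic cells (DCs) with and without the transcription factor C/EBPβ. A list of 32 genes was taken by name: 19 of the sterol arm, 5 regulators of the SREBP transcription factors and 8 of the fatty acid arm. Of these, 30 were measured among 22180 genes in all, 17, 5 and 8 in the 3 groups, each by the brightest probe that names that gene alone. Idi1, the isomerase of isopentenyl diphosphate, lay only on a probe shared with another gene, and Acat2, the cytosolic thiolase, had no named probe among those used here.

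Total RNA was read on 1 single-channel array per sample, with 6 control samples (C/EBPβ+/+) and 3 knockout samples (C/EBPβ-/-). All samples were naive, on a C57BL/6 background, and sorted from spleen as cells carrying CD11c and MHC class II. Knockout DCs came from mice in which Cre recombinase with eGFP, driven by the CD11c promoter, meets a loxP-flanked C/EBPβ gene (CD11c.Cre x C/EBPβflox/flox). The deletion is thus directed at CD11c-expressing cells, and its extent in other cells was not measured here. Controls came from mice named as C57BL/6 and CD11c.Cre, and the labels do not say which control came from which. The labels give neither age nor sex. They do not say that replicates were separate animals either, so p-values cover only the spread from sample to sample, part of which can be technical. Precision is limited by the small number of arrays.

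Cells build cholesterol from acetyl-CoA through mevalonate, farnesyl diphosphate, squalene and lanosterol. When sterol in the endoplasmic reticulum is low, the escort protein SCAP carries the SREBP proteins to the Golgi, where they are cut and freed to enter the nucleus. INSIG proteins hold SCAP back when sterol is plentiful. SREBP-2, encoded by Srebf2, acts mainly on the sterol enzymes and SREBP-1, encoded by Srebf1, mainly on fatty acid synthesis, usually together with the CCAAT-binding factor NF-Y. In DCs lipid supply is linked to antigen handling and membrane growth, and dividing cells need new sterol and fatty acids.

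Cebpb, the deleted gene, had values of 6.64 to 7.15 (median 6.76) in the controls on the log2 intensity scale and of 5.37, 5.60 and 5.42 in knockout replicates 1 to 3, with no overlap of the groups. The DC markers were high: Itgax, which encodes CD11c, lay between 12.04 and 12.25 in the controls and between 12.10 and 12.18 in the knockouts, and of 12 DC markers measured 0 passed 0.05, with the transcription factor Zbtb46 (-0.13, adjusted p = 0.36) and the surface receptor Sirpa (-0.12, adjusted p = 0.39) nearest to it. Over all genes 201 passed limma's test at an adjusted p of 0.05, 92 higher and 109 lower in the knockout. This count was 33 without knockout replicate 2, 332 without knockout replicate 1, 49 to 73 without control replicate 1, 3, 4, 5 or 6, 3 against control replicates 1 to 3 alone, 20 against control replicates 4 to 6 alone and 652 with array weights, so the shares of all genes given beside the members move with it. Knockout replicate 3 stood apart in other lists, where the mean over 11 B cell markers was 0.79 above that of the controls. In knockout replicates 1 and 2 it was 0.17 and -0.18, and in the controls -0.068 to 0.14.

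No gene of the 30 passed 0.05 after adjustment over all genes. By limma 0 members passed as higher and 0 as lower, where 0.906% of all genes tested passed, 0.415% higher and 0.491% lower. In simulated arrays of the same design 16 of 50 genes changed by 0.3 were recovered, so changes of this size can be missed. At an unadjusted p under 0.05 there were 10 of 30 members, or 33.3%, beside 14.3% of all genes. They were spread unevenly, with 3 of 17 in the sterol arm (17.6%), 1 of 5 regulators (20.0%) and 6 of 8 in the fatty acid arm (75.0%). Of these 10, 3 had a higher mean in the knockout (Pmvk, Elovl5 and Fads1), where 5.5% of all genes did, and 7 a lower one (Fdps, Sqle, Srebf1, Acaca, Fasn, Elovl6 and Fads2), where 8.82% did. The median log2 change over the members was -0.12, beside -0.014 over all genes, and 22 of 30 members had a lower mean in the knockout, or 73.3% beside 55.0% of all genes. Of the 30 members 29 lay above the median gene in signal, while the shares of all genes include the dimmer genes. Over the 11090 genes above that level the median change was -0.045. The median of the members was -0.048 without knockout replicate 3, -0.049 against control replicates 1 to 3 alone and -0.058 with array weights. The 95% confidence intervals of the single changes, not adjusted for their number, all lay between -0.64 and 0.59 on the log2 scale. Each of these intervals therefore leaves out a change of 2-fold in either direction.

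**Figure D1:**
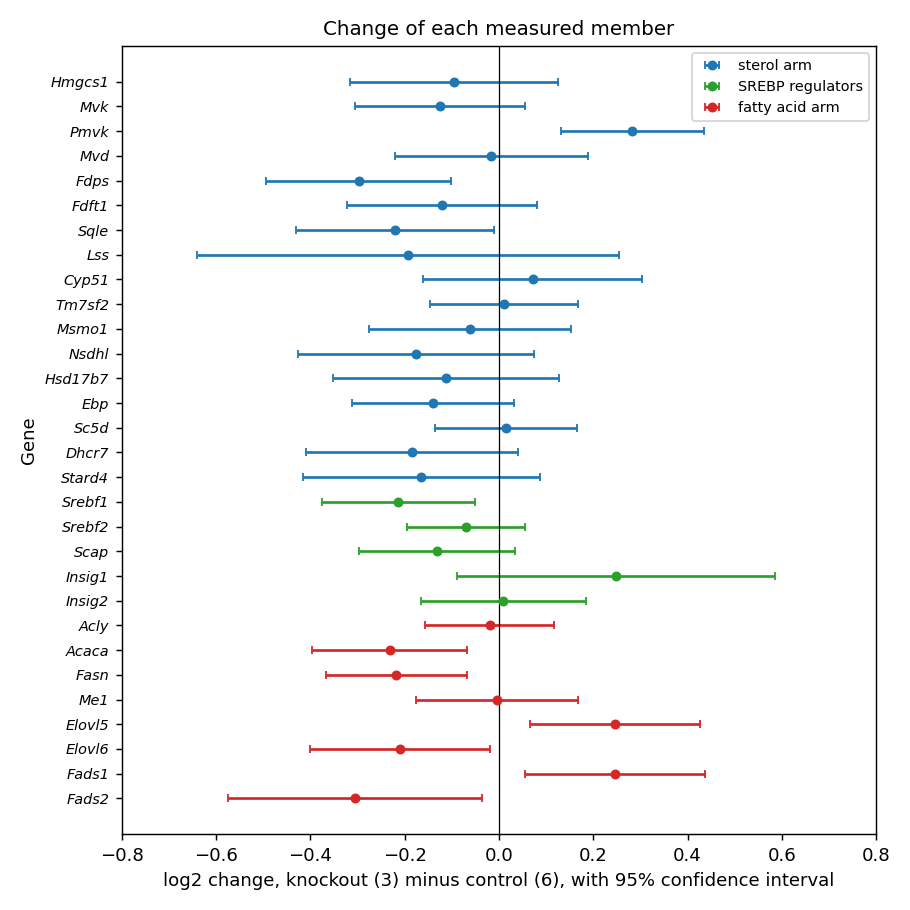
Log2 change of each of the 30 measured members, knockout minus control, in pathway order within the sterol arm (blue), the SREBP regulators (green) and the fatty acid arm (red). Points are differences of group means (3 knockouts, 6 controls) and bars are limma's 95% confidence intervals; the 30 intervals lie between -0.64 and 0.59, and 20 of them include 0.

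The promoters of the members were searched because SREBP proteins act with NF-Y, and the sequences below show how the motif recurs. RefSeq (GRCm38.p6) windows of 300 bases, from 250 before to 50 after each start, were matched for 27 of the 32 members. The NF-Y letters CCAAT, on either strand, occurred in 22 of 27 members, or 81.5%, beside 41.6% of 16990 tested genes with such a window. By arm they occurred in 14 of 15 sterol genes, 4 of 5 regulators and 4 of 7 fatty acid genes. Counted over single windows rather than genes, they occurred in 14 of 18 sterol windows (77.8%), 5 of 10 regulator windows, 4 of 8 fatty acid windows and 63.9% of all 36 member windows, beside 37.7% of windows of tested genes. The letters TCACNCCAC of a sterol regulatory element occurred in 1 of 27 members (Hmgcs1) beside 1.43% of tested genes, and the C/EBP letters TTGCGNAA in 0 of 27 beside 1.09%. A match is a description of these letters, and a missing match says nothing about binding.

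The 250 bases before the start are shown for Hmgcs1, which holds the sterol element, for the neighbouring kinases Mvk and Pmvk, whose group means differed in opposite directions, and for Fasn, the central enzyme of the fatty acid arm. Capitals mark CCAAT, or ATTGG where it lies on the other strand, and in Hmgcs1 also TCACCCCAC. Each is printed 5′ to 3′ on the strand of the gene, at chr13:119690101-119690350 (plus strand), chr5:114444019-114444268 (plus), chr3:89454291-89454540 (plus) and chr11:120824548-120824797 (minus) in that order.
Hmgcs1: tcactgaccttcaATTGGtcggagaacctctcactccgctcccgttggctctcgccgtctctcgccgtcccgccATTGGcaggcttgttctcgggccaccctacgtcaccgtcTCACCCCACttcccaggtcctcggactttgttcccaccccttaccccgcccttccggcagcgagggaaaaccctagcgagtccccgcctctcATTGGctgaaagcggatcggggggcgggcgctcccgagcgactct
Mvk: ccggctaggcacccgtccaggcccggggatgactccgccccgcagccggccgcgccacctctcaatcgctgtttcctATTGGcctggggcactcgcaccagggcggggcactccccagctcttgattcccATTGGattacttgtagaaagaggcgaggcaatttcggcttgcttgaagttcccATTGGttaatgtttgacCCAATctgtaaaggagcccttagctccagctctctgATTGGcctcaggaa
Pmvk: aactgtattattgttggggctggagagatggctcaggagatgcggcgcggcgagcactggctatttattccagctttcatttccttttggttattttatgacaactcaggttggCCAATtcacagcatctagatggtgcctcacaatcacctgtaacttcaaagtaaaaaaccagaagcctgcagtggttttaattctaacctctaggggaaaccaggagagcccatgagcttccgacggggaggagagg
Fasn: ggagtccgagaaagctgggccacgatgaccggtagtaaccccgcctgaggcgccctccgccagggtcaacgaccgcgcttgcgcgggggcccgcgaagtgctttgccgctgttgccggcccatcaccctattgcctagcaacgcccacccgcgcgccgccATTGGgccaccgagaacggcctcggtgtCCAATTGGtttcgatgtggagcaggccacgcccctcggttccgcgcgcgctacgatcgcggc
In these stretches the letters occurred 3 times in Hmgcs1, 5 times in Mvk, 1 time in Pmvk and 3 times in Fasn, where the last 2 matches overlap. Pmvk has another listed start, whose window held 0 matches, and the array does not tell the starts apart.

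The sterol arm held 1 gene above every control and 13 with a lower mean, none of which passed. Its 17 measured members had a median change of -0.12 and ranged from -0.30 to 0.28, with limma's adjusted p between 0.087 and 0.97. All 3 knockouts were outside the control range in 1 of 17 members, or 5.88%, beside 7.39% of all genes. Over the 30 members there were 3, or 10.0%, with 2 above all controls (2.52% of all genes) and 1 below (4.88%).

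Pmvk, phosphomevalonate kinase, which adds the second phosphate in the mevalonate pathway, was the member with the smallest p. The stretch printed for Pmvk held 1 CCAAT and the window of its other listed start 0, where the stretch of Mvk held 5. The array does not tell the starts apart, and a link of such counts to expression was not tested. The log2 intensity of Pmvk was 8.38 to 8.58 (median 8.50) in the controls and 8.84, 8.88 and 8.65 in knockout replicates 1 to 3. All 3 knockouts lay above all 6 controls. The mean was 8.51 ± 0.070 (SD, n = 6) in the controls and 8.79 ± 0.12 (SD, n = 3) in the knockouts, a difference of 0.28 on the log2 scale (SE 0.07, 1.22-fold) whose 95% confidence interval ran from 0.13 to 0.44. Its adjusted p by limma was 0.087, which misses 0.05. It passed under 3 alternatives, with adjusted p = 0.023 with array weights, 0.044 after a second quantile normalization and 0.041 when only genes above the median level were tested; over all 20 alternatives the adjusted p ranged from 0.023 to 0.48.

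The mevalonate enzymes before and after Pmvk had mean differences of -0.10 (Hmgcs1), -0.13 (Mvk) and -0.016 (Mvd), none of which passed. Hmgcs1, which makes HMG-CoA, read 9.43 to 9.66 (median 9.56) in the controls and 9.56, 9.63 and 9.15 in the knockouts. Mvk, mevalonate kinase, which acts on the substrate just before Pmvk, read 7.09 to 7.41 in the controls and 7.13, 7.25 and 7.02 in the knockouts. Mvd, the decarboxylase that follows Pmvk, read 7.55 to 8.04 in the controls and 7.78, 7.78 and 7.75 in the knockouts. In Hmgcs1 and Mvk only knockout replicate 3 lay below every control, and in Mvd all 3 knockouts lay inside the control range. Taken within each array, Pmvk minus Mvk was 1.09 to 1.42 in the controls and 1.70, 1.63 and 1.63 in the knockouts, a pair chosen after its values were seen and given with no test.

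Fdps, farnesyl diphosphate synthase, had the largest decrease of mean in the sterol arm. It read 8.16 to 8.36 (median 8.24) in the controls and 7.87, 8.18 and 7.81 in knockout replicates 1 to 3. Replicates 1 and 3 lay below all controls, while replicate 2 lay among them. The difference was -0.30 (SE 0.09, 95% confidence interval -0.49 to -0.10) with limma's adjusted p = 0.15. Sqle, squalene epoxidase, which takes squalene into the sterol branch, followed with -0.22 (SE 0.10, adjusted p = 0.32) and the same order of samples, at 7.60 to 7.97 in the controls and 7.52, 7.75 and 7.36 in the knockouts. Fdft1, squalene synthase, which acts between them, read 8.44, 8.85 and 8.66 in the knockouts against 8.65 to 8.93 in the controls, and only replicate 1 lay below them.

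Lss, lanosterol synthase, which closes the sterol rings, varied most among the controls. Its values were 6.53, 6.81 and 6.61 in control replicates 1 to 3 and 7.40, 7.10 and 7.48 in control replicates 4 to 6, an SD of 0.40 (n = 6) beside a median SD of 0.12 over all genes. The knockouts, at 6.80, 6.92 and 6.67, lay between the lowest and highest controls. The difference was -0.53 against control replicates 4 to 6 alone and 0.14 against control replicates 1 to 3 alone, so its sign depends on which controls are used. Control replicates 1 to 3 lay entirely below or above control replicates 4 to 6 in 9 of 30 members, or 30.0%, beside 16.2% of all genes; the other 8 were Hmgcs1, Nsdhl, Hsd17b7, Sc5d, Dhcr7, Scap, Insig2 and Fads1, and the labels give no batch for either set.

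The enzymes that turn lanosterol into cholesterol had changes between -0.18 and 0.07. Cyp51, the lanosterol demethylase, had a mean of 8.45 ± 0.14 (SD, n = 6) in the controls and 8.53 ± 0.21 (SD, n = 3) in the knockouts. Tm7sf2, a sterol reductase, differed by 0.01, and Sc5d, the sterol desaturase, by 0.01. Msmo1, the methylsterol oxidase, differed by -0.06. Nsdhl and Hsd17b7, which complete the removal of the methyl groups, differed by -0.18 and -0.11, and Ebp, the sterol isomerase, by -0.14. Dhcr7, the last reductase before cholesterol, differed by -0.18, with 7.71, 7.75 and 7.63 in the knockouts against 7.59 to 8.17 in the controls. Stard4, a cytosolic sterol carrier, differed by -0.16, from 7.02, 7.02 and 6.55 in the knockouts against 6.79 to 7.18 in the controls. In these 8 enzymes and the carrier the groups overlapped in every case, and limma's adjusted p lay between 0.46 and 0.97.

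**Figure D2:**
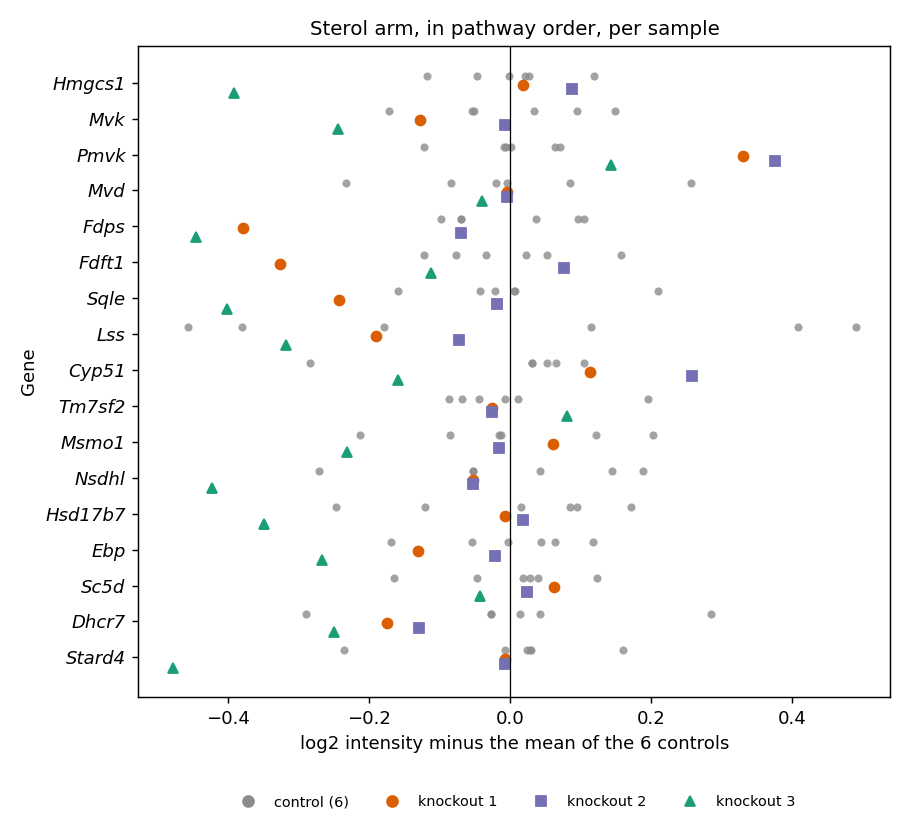
Log2 intensity of each of the 17 measured sterol arm genes in each sample, minus the mean of that gene's 6 controls, in pathway order from top to bottom. Grey points are controls and the coloured symbols are knockout replicates 1 to 3, drawn at slightly different heights; Pmvk is the gene whose 3 knockouts lie to the right of all controls, and knockout replicate 3 lies to the left of all controls in 9 of the 17 genes.

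Knockout replicate 3 had the lowest values of the sterol arm. That sample had the lowest of all 9 values in 9 of the 17 members, against 1 member for knockout replicate 1 and 0 for knockout replicate 2. It lay below every control in 9 of 17 members, while over all genes it did so in 23.7%. A sample with low values across the arm was also seen among the controls. Control replicate 1 was the lowest control in 11 of 17 members and had the lowest control mean of the arm, -0.14. The mean of the arm relative to the controls was -0.064 in knockout replicate 1, 0.025 in replicate 2 and -0.23 in replicate 3, and the controls ran from -0.14 to 0.12, so that replicate 3 lay below the control range and the other knockouts within it. The median change of the arm, -0.12, was -0.025 without knockout replicate 3 and -0.19 without knockout replicate 2. It also moved with the choice of controls and with weights, to -0.051 against control replicates 1 to 3 alone, -0.16 against control replicates 4 to 6 alone and -0.053 with array weights.

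The same sample also had the most extreme mean of the cell cycle and B cell lists, outside the pathway. The mean over 15 cell cycle genes was -0.26, -0.49 and -0.89 in the 3 knockouts in order of replicate, and -0.12 to 0.14 among the controls; 2 of these genes fell, the mitotic kinases Plk1 (-0.61, adjusted p = 0.024) and Aurkb (-0.52, adjusted p = 0.031), and 0 rose, where 0.491% of all genes fell. Among the B cell markers 0 of 11 passed. Cd79a, a chain of the B cell receptor, read 8.67, 7.74 and 10.21 in knockout replicates 1 to 3, where the controls read 7.29 to 8.24. Blk, a B cell kinase, read 8.08, 7.26 and 7.99, highest in replicate 1, where the controls read 7.23 to 7.43. All 3 knockouts had a lower cell cycle mean than every control, and knockout replicates 1 and 2 had a sterol mean inside the control range. The part of these lists in the sterol values was not tested. In bulk samples fewer cells of a type and less RNA per cell cannot be told apart.

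Among the regulators, Srebf1 had the smallest p and 0 of 5 passed. Srebf1, which encodes the forms of SREBP-1, not told apart here, had values of 7.67 to 7.83 (median 7.72) in the controls and of 7.52, 7.38 and 7.68 in the knockouts. Replicates 1 and 2 lay below every control and replicate 3 at their lower end. The difference was -0.21 (SE 0.07, 95% confidence interval -0.38 to -0.05), with limma's adjusted p = 0.21. Srebf2 differed by -0.07 (95% confidence interval -0.20 to 0.05), with 10.42, 10.55 and 10.56 in the knockouts against 10.54 to 10.65 in the controls. Scap, the escort protein, differed by -0.13 (adjusted p = 0.47) with overlapping groups.

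Insig1, an SREBP target whose product retains SCAP, had the widest interval of the regulators. It read 9.17 to 9.98 (median 9.63) in the controls and 9.92, 10.04 and 9.63 in the knockouts, a difference of 0.25 (SE 0.15, 95% confidence interval -0.09 to 0.59, adjusted p = 0.52). Only knockout replicate 2 lay above all controls. Insig2, its relative, differed by 0.01 (95% confidence interval -0.17 to 0.18). The 5 regulators had a median change of -0.071, and 0 of 5 lay outside the control range in all 3 knockouts.

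In the fatty acid arm 0 of 8 genes passed the test. Elovl5 and Fads1 had higher means in the knockout, the other 6 lower ones, and the largest decrease was that of Fads2. Of the 8 members 6 had an unadjusted p under 0.05, or 75.0% beside 14.3% of all genes, in both directions (2 higher, 4 lower), and limma's adjusted p lay between 0.17 and 0.99. The median change was -0.11. The mean of the arm was -0.011, -0.038 and -0.14 in the knockouts by replicate and -0.057 to 0.044 among the controls, and by this mean only replicate 3 left the control range. By the median over the arm, at -0.10, -0.033 and -0.13 against -0.079 to 0.037, replicates 1 and 3 both did.

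Acaca, acetyl-CoA carboxylase 1, which commits acetyl-CoA to fatty acids, was below every control in all 3 knockouts. It read 7.90 to 8.22 (median 7.96) in the controls and 7.76, 7.83 and 7.72 in the knockouts, a difference of -0.23 (SE 0.07, 95% confidence interval -0.40 to -0.07, adjusted p = 0.18). Fasn, fatty acid synthase, read 9.47 to 9.71 (median 9.64) in the controls and 9.31, 9.49 and 9.40 in the knockouts, where replicate 2 lay just inside the control range. Its difference was -0.22 (SE 0.07, 95% confidence interval -0.37 to -0.07, adjusted p = 0.17). The genes that supply the pathway had intervals around 0: Acly, which makes cytosolic acetyl-CoA, differed by -0.02 (95% confidence interval -0.16 to 0.12). Me1, the malic enzyme that yields NADPH, differed by -0.0039 on a dim probe, the only member below the median gene (5.93) in signal.

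In elongation and in desaturation, 1 enzyme of each pair had a higher and 1 a lower mean in the knockout. Elovl5, which elongates polyunsaturated chains, read 11.07 to 11.25 in the controls and 11.59, 11.38 and 11.22 in the knockouts, a difference of 0.25 (SE 0.08, adjusted p = 0.20), with replicate 3 inside the control range. Elovl6, which elongates saturated and monounsaturated chains, read 7.98 to 8.12 in the controls and 8.03, 7.60 and 7.81 in the knockouts, a difference of -0.21 (SE 0.09, adjusted p = 0.30), with replicate 1 inside the control range. Within each array, Elovl5 minus Elovl6 was 3.08 to 3.21 in the controls and 3.56, 3.78 and 3.40 in the knockouts, so that the groups did not overlap.

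Fads1, the delta-5 desaturase, was above every control in all 3 knockouts, at 9.18, 8.87 and 8.84 against 8.60 to 8.80 (median 8.76). The difference was 0.25 (SE 0.09, 95% confidence interval 0.06 to 0.44, adjusted p = 0.22). Fads2, the delta-6 desaturase, read 6.51, 6.68 and 6.14 against 6.50 to 6.97 (median 6.76), and only replicate 3 lay below the controls, with a difference of -0.31 (SE 0.12, 95% confidence interval -0.57 to -0.04, adjusted p = 0.28). The genes are close neighbours on chromosome 19. Fads1 minus Fads2 was 1.76 to 2.10 in the controls and 2.66, 2.19 and 2.70 in the knockouts. Both within-array differences of this arm were chosen after their values were seen and are given with no test.

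**Figure D3:**
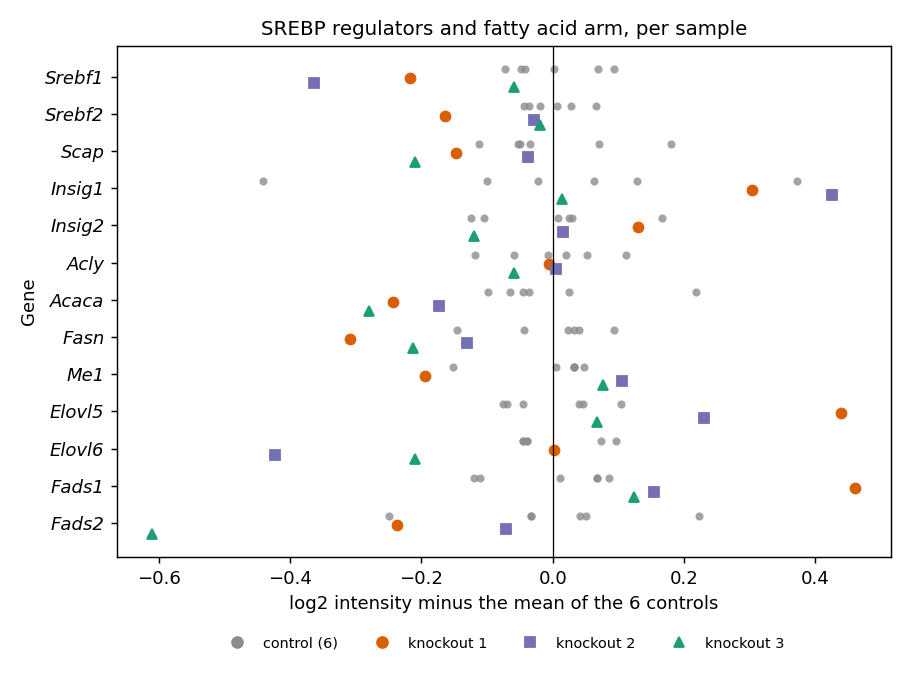
Log2 intensity of the 5 SREBP regulators (Srebf1 to Insig2) and the 8 fatty acid arm genes (Acly to Fads2) in each sample, minus the mean of that gene's 6 controls. Grey points are controls and the coloured symbols are knockout replicates 1 to 3; the 3 knockouts lie left of all controls for Acaca and right of all controls for Fads1.

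Other genes of the pathway were read from 5 further lists, in which 2 of 40 measured genes rose and 0 fell, where 0.415% of all genes rose and 0.491% fell. Mylip was in the list of the sterol-sensing nuclear receptors LXR and their targets, Scd1 in that of further fatty acid genes. Mylip, a ubiquitin ligase that removes the LDL receptor, read 9.07 to 9.26 (median 9.19) in the controls and 9.77, 9.61 and 9.40 in the knockouts. It rose by 0.41 (SE 0.08, 95% confidence interval 0.23 to 0.59, limma's adjusted p = 0.049), with all 3 knockouts above all controls. Scd1, the stearoyl-CoA desaturase, introduces the first double bond and is an SREBP-1 target. It read 5.89 to 6.75 (median 6.48) in the controls and 7.31, 7.07 and 7.54 in the knockouts. The rise was 0.87 (SE 0.17, limma's adjusted p = 0.046).

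Both calls were lost in most fits with 1 sample fewer, in which the change was 0.32 to 0.51 for Mylip and 0.75 to 0.98 for Scd1. Mylip passed without knockout replicate 3 (adjusted p = 0.019) and missed 0.05 without any 1 of the other 8 samples (0.076 to 0.17). Scd1 passed without control replicate 6 (0.038) and missed 0.05 without any 1 of the other 8 (0.054 to 0.12). Mylip also missed it with arrays centred on their median (0.066) and with all probes tested (0.052). Over all 20 alternatives the adjusted p ranged from 0.013 to 0.40 for Mylip and from 0.021 to 0.37 for Scd1.

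The list of LXR and its targets had a median change of 0.20, with 1 of 7 genes past 0.05 (Mylip) and 3 above all controls, where 2.52% of all genes were. The other 2 above all controls were Nr1h3, which encodes LXR alpha (0.50, adjusted p = 0.094), and Abca1, the cholesterol exporter (0.59, adjusted p = 0.096). The exporter Abcg1 differed by 0.13 and Lpcat3 by -0.10, the only lower mean in this list. The mean of this list was 0.16, 0.28 and 0.33 in knockout replicates 1 to 3 and -0.15 to 0.11 in the controls. Macrophage markers were read beside it. For red pulp macrophages, the mean over 11 markers ran from -0.61 to 0.63 in the controls and was 0.24, 0.81 and 0.75 in the knockouts, so that replicate 1 lay inside the control range, with 0 of 11 past 0.05 and the receptors Cd163 (0.42, adjusted p = 0.074) and Axl (0.81, adjusted p = 0.081) nearest to it. Over 11 monocyte and macrophage markers it was 0.27, 0.38 and 0.45 against -0.19 to 0.16, and 1 of 11 passed, Ace, the angiotensin-converting enzyme (1.16, adjusted p = 0.0096), followed by the Fc receptor Fcgr1 (0.80, adjusted p = 0.070). The part of these cells in the LXR values was not tested.

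The remaining lists gave no call beyond Scd1. Of 4 further sterol synthesis genes 0 passed, with Acat1, the mitochondrial thiolase, at -0.14 (adjusted p = 0.41) and Lbr, a sterol reductase of the nuclear envelope, at -0.19 (adjusted p = 0.56). Of 13 further fatty acid genes Scd1 alone passed, and Mcat, of mitochondrial fatty acid synthesis, followed at -0.24 (adjusted p = 0.18). Of 7 genes of SREBP processing and sterol sensing 0 passed, with Mbtps2, the site-2 protease that frees SREBP, at -0.25 (SE 0.07, adjusted p = 0.14) and below every control in all 3 knockouts, and Tmem97, a sterol-responsive membrane protein, at -0.24 (adjusted p = 0.22). Of 9 genes of sterol transport and oxidation 0 passed, with Ch25h, the cholesterol 25-hydroxylase, at 0.30 (adjusted p = 0.13) and Cyp7b1, the oxysterol hydroxylase, at -0.16 (adjusted p = 0.30). Of 6 T and NK cell markers 0 passed, with the T cell receptor chains Cd3d (0.13, adjusted p = 0.42) and Cd3g (0.095, adjusted p = 0.53) nearest to it.

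**Figure D4:**
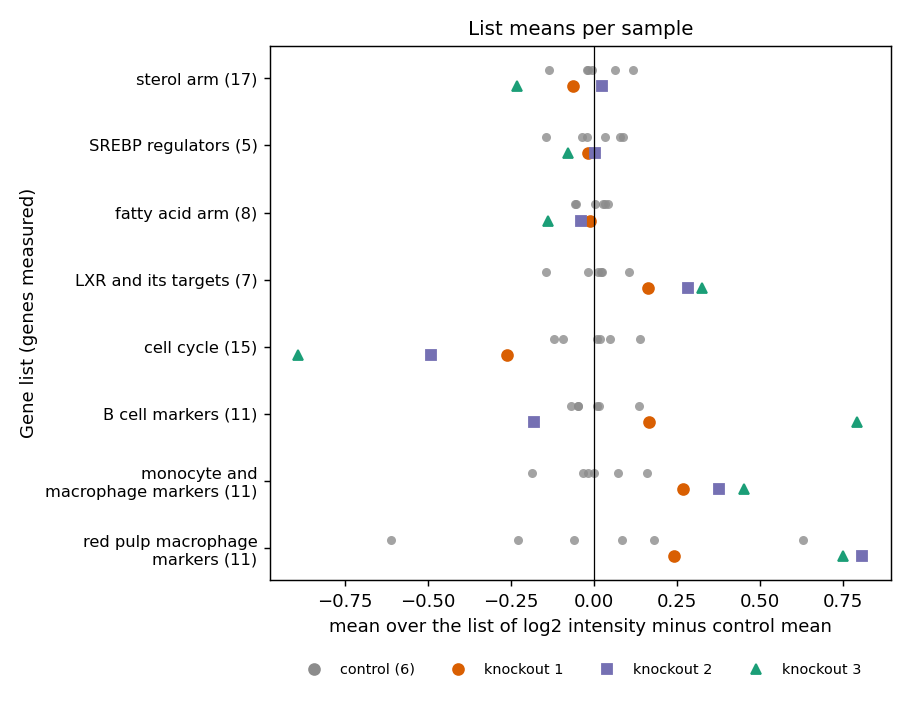
Mean over each gene list of the log2 intensity minus the control mean, per sample, with the number of genes measured in brackets. Grey points are the 6 controls and the coloured symbols are knockout replicates 1 to 3. In the sterol arm (-0.23) and the fatty acid arm (-0.14) only knockout replicate 3 lies left of all controls. The 3 knockouts lie left of all controls for the cell cycle list. They lie right of all controls for LXR and its targets and for the monocyte and macrophage markers.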

How the data were processed

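The authors deposited log2 intensities, 1 value per probe and sample, made with RMA (background correction, quantile normalization, probe summary) per the submitters' processing notes; its version and settings and the genome build are not stated in the sources used here. RMA compresses changes of dim probes and removes a shift shared by most genes. Of 41801 rows, 34468 had a value in every sample, and 23521 of these had 1 gene symbol in the platform's annotation. The brightest probe per gene gave 22180 genes; 29 of the 30 members had 1 probe. Array medians lay between 5.49 and 5.56.

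Groups were compared by limma 3.58.1 (lmFit, then eBayes, two-sided, without covariates) in R 4.3.3 over all genes, Benjamini-Hochberg adjusted, threshold 0.05. Intervals are 95%. Lists are described by counts and medians. The members, the lists and the tests were chosen with earlier results of these data known. Named outside the members were Cebpb and, of each list, genes past 0.05 and the 2 smallest p. Itgax, Abca1, Abcg1 and Lpcat3 were chosen after their values were seen.

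The fit was tested on simulated arrays of 22180 genes in the same design, recovering 16, 37, 48 and 50 of 50 genes changed by 0.3, 0.5, 1 and 2 on the log2 scale. Alternatives were the array scaling, array weights, robust eBayes with a trend, a replicate block, subsets of controls, each sample left out, a signal filter and the probe summary; 1 more, without control replicates 2 and 3, was added after seeing the data. Figures were made in Python 3.11.15 with matplotlib 3.10.9.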

Additional observations from a re-analysis of the deposited data

Results flagged for a closer look

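In 36 sets of 6 control values (30 members, the means of the 3 groups of members, Cebpb, Mylip and Scd1), 3 had a sample far from the others, where chance gives about 1 in 20. Cyp51 read 8.17 in control replicate 1 against 8.48 to 8.56 in the other controls. Tm7sf2 read 6.52 in control replicate 2 against 6.24 to 6.34. Me1 read 3.78 in control replicate 2 against 3.93 to 3.97.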

How the results depend on the processing

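The count of 0 members past 0.05 held in 17 of 20 alternatives and became 1, in each case Pmvk of the sterol arm, after a second quantile normalization, with array weights and with the signal filter. The number of genes past 0.05 over all genes, 201, was 652 with array weights, 537 with the signal filter, which tests fewer genes, 20 against control replicates 4 to 6, 3 against control replicates 1 to 3, 38 without control replicates 2 and 3, and 33 to 332 with 1 sample left out. The 2 other pathway genes past 0.05 became 1 with arrays centred on their median and with all probes tested, 4 with the signal filter, 0 against either set of controls or without control replicates 2 and 3, and 0 to 2 with 1 sample left out. The median change of these other genes, -0.016, was 0.045 against control replicates 1 to 3 and -0.070 against control replicates 4 to 6. The median over all members, -0.12, was -0.049 against control replicates 1 to 3 and ranged from -0.16 to -0.048 with 1 sample left out, that of the sterol arm from -0.19 to -0.025, and that of the fatty acid arm was -0.21 with the signal filter, which removes Me1.

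Same-numbered samples did not deviate together (correlations -0.14, -0.10 and 0.047), so the numbers were taken as names only. With the replicate block, which leaves control replicates 4 to 6 without a partner, 2 genes passed over all genes, 0 members and 0 other pathway genes, with medians of -0.049 and 0.045 for the last 2.

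Signs turned for 11 members, none of which passed under any alternative. Against control replicates 1 to 3, and equally with the block, Mvd was 0.061, Lss 0.14, Tm7sf2 -0.024, Hsd17b7 0.0046, Acly 0.022 and Me1 0.034. Against control replicates 4 to 6 Msmo1 was 0.041, Sc5d -0.049 and Insig2 -0.065. Without control replicates 2 and 3 Sc5d was -0.038 and Insig2 -0.015. After a second quantile normalization Mvd was 0.047 and Msmo1 0.0038. Array weights gave Tm7sf2 -0.0053 and Me1 0.022, and centring gave Me1 0.00021. With 1 sample left out the ranges were -0.19 to 0.053 for Hmgcs1, -0.063 to 0.035 for Mvd, -0.022 to 0.19 for Cyp51, -0.025 to 0.049 for Tm7sf2, -0.12 to 0.023 for Msmo1, -0.18 to 0.0059 for Hsd17b7, -0.018 to 0.043 for Sc5d, -0.044 to 0.0024 for Acly, -0.059 to 0.091 for Me1 and -0.052 to 0.073 for Insig2. The cause of these shifts was not tested.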
